A study of Drosophila melanogaster with 4 samples.

Results

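miR-284 is a fly microRNA whose hairpin yields a long 5p arm, miR-284-5p, and a shorter 3p arm, miR-284-3p. In the heads sequenced here the 5p arm was one of the most oxidation-resistant abundant small RNAs, and the 3p arm was not. The members are the 85 distinct read sequences, of 5550 in the 4 libraries, that overlap an arm of miR-284 without mismatch over at least 15 nt. Of these, 69 belong to the 5p arm and 16 to the 3p arm, and they form 2 of 523 arms into which the sequences of the 4 libraries fell. The hairpin was chosen by its measured values, namely the oxidation ratio and the read length of its 5p arm, so its place among arms is a description and not a test. The overlap limit itself left nothing out: no sequence matched an arm over 13 or 14 nt only, and a single 5p sequence, with 1 read at 3 days and 4 reads at 30 days, both after oxidation, sat exactly on the limit.

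The libraries hold small RNA from heads of wild-type males of the strain labelled 5905. One library comes from 3-day flies without oxidation, 1 from 3-day flies whose RNA went through oxidation with β-elimination, and 1 of each kind from 30-day flies. Ages follow the titles and descriptions, because the age tag of 2 libraries contradicts them. Each group is 1 library, so no difference has a replicate check, and every interval below is a 95% interval that covers counting error only. The deposited reads summed to 16112748 (3 days, not oxidized), 2091252 (3 days, oxidized), 17345816 (30 days, not oxidized) and 12105527 (30 days, oxidized). A head holds many cell types, and fewer cells making a microRNA cannot be told apart from less of it per cell. As a check of the tissue, miR-124-3p, a neuronal microRNA, was at 1074 RPM (reads per 1000000 reads in a library's own table) at 3 days and 1070 RPM at 30 days without oxidation. The muscle microRNA miR-1-3p was at 48.2 and 39.4 RPM in the same libraries. miR-263a-5p, a microRNA of sense organs, was at 8551 and 15345 RPM. Of the fat body and broadly used miR-278 and miR-8, miR-8-3p was at 140605 and 163154 RPM. The main arm miR-278-3p was at 6380 and 8193 RPM, and the minor arm miR-278-5p at 555 and 544 RPM.

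A microRNA hairpin is cut into a duplex of a 5p and a 3p strand, and an Argonaute protein keeps one of them. In flies, strands kept by AGO2 receive a 2′-O-methyl group on their last base from the methyltransferase Hen1, whereas most strands kept by AGO1 do not. Periodate oxidation followed by β-elimination spoils unmethylated 3′ ends for cloning, so that methylated RNAs gain in an oxidized library. miR-284 has been studied at the fly neuromuscular junction, where it acts on glutamate receptor subunits.

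In the BDGP6 annotation, whose coordinates were found by gene name because the deposited tables carry none, mir-284 spans 12551515 to 12551614 on the minus strand of chromosome 3R. The annotated 5p arm runs from 12551580 to 12551605 and has 26 nt, and the 3p arm runs from 12551527 to 12551547 and has 21 nt. The 32 bases between them form the loop side. The hairpin lies inside Octbeta2R, a receptor gene for the neurotransmitter octopamine, on the same strand. Of the 6 annotated Octbeta2R transcripts 2 reach the hairpin, and in both it falls in an exon, within the 3′ UTR. These sequences, read from the deposited tables, are the forms that held at least 1% of an arm in some library, with the seed (bases 2 to 8, which select targets) in capitals.
miR-284-5p, 27 nt: cCTGGAATtaagttgactgtgtagcct
miR-284-5p, 26 nt: cCTGGAATtaagttgactgtgtagcc
miR-284-5p, 25 nt: cCTGGAATtaagttgactgtgtagc
miR-284-5p, 24 nt: cCTGGAATtaagttgactgtgtag
miR-284-5p, 22 nt: cCTGGAATtaagttgactgtgt
miR-284-3p, 22 nt: gTCAGCAActtgattccagcaa
miR-284-3p, 21 nt: gTCAGCAActtgattccagca
miR-284-3p, 20 nt: gTCAGCAActtgattccagc

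All forms of an arm share 1 start and so 1 seed, and they differ only in where the 3′ end falls. The 5p arm begins with C, a first base common among AGO2-bound strands, and the 3p arm begins with G. The most abundant 5p form without oxidation had the annotated 26 nt, and the 3p form with the highest level summed over the 4 libraries had the annotated 21 nt. Without oxidation a 3p form of 22 nt led at both ages (7056 against 5123 reads at 3 days and 4174 against 3274 at 30 days), so that match comes from the oxidized libraries. The start of the 3p reads was not compared with the annotated position, and the catalogue entry as recalled begins a few bases upstream, so the 3p seed is that of the reads. Folded together with ViennaRNA, both arms formed 17 base pairs at -23.5 kcal/mol, the strongest partner of the 5p arm among 522 arms searched; the next had -16.5 kcal/mol. In this predicted duplex the 26-nt 5p form runs 5 bases past the 5′ end of the 3p arm, and the 24-nt form runs 3 bases past it. At the other end the 22-nt 3p form leaves an overhang of 2 bases, the 21-nt form 1 base and the 20-nt form none (0 bases). The 5p seed is shared by 2 other arms, both unnamed and scarce, the larger at 14.4 RPM at 3 days without oxidation and 2.39 RPM with it. No other arm (0 arms) had the 3p seed.

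miR-284-5p was at 4338 RPM at 3 days without oxidation, 92348 RPM at 3 days with oxidation, 6455 RPM at 30 days without oxidation and 91252 RPM at 30 days with oxidation. Both oxidized libraries stood far above both others, and their levels were within 1.01-fold of each other. The arm was the 24th most abundant at 3 days and the 21st at 30 days without oxidation, and it was the 2nd most abundant in both oxidized libraries, where it took 9.23% and 9.13% of all reads. Its oxidation ratio (oxidized over not oxidized, from RPM) was 21.3-fold at 3 days (95% interval 21.1 to 21.5) and 14.1-fold at 30 days (14.05 to 14.2). Of all arms above a mean of 100 RPM and 50 reads, 35.7% were at least 2-fold higher after oxidation at 3 days and 29.5% at 30 days. Among all arms above the filter miR-284-5p came 8th of 98 at 3 days and 8th of 95 at 30 days. A mean filter also admits arms that pass only by being high after oxidation. Of the arms placed above it, miR-315-3p, miR-308-5p, miR-33-3p and miR-100-3p were below 100 RPM without oxidation at both ages. The shares given here and the median arm below include such arms. When the level limit was applied to the unoxidized libraries alone, miR-284-5p came 4th at each age. Since the hairpin was chosen on this contrast, nothing is read from either place. miR-263a-5p took 316403 and 504995 RPM of the oxidized libraries and so lowered the RPM of everything else there. With it left out of the totals the ratio of miR-284-5p was 4.95 at 3 days and 4.81 at 30 days on the log2 scale, against 4.41 and 3.82 with it.

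miR-284-3p was at 814 RPM at 3 days without oxidation, 515 RPM at 3 days with oxidation, 515 RPM at 30 days without oxidation and 386 RPM at 30 days with oxidation. The untreated 3-day library was the highest and the oxidized 30-day library the lowest, over a range far narrower than that of its partner. The oxidation ratio on the log2 scale was -0.66 at 3 days (-0.75 to -0.57) and -0.42 at 30 days (-0.47 to -0.36), and neither reached 2-fold. At least 2-fold lower levels after oxidation were found in 43.9% of arms at 3 days and 52.6% at 30 days. The median arm was at -0.69 and -1.28, so that miR-284-3p lay 0.03 above the median arm at 3 days and 0.87 above it at 30 days. The sign of its ratio depends on how the libraries are scaled: at 30 days it was 0.13 with TMM scaling, 0.24 with median-of-ratios scaling and 0.58 with miR-263a-5p left out of the totals.

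**Figure D1:**
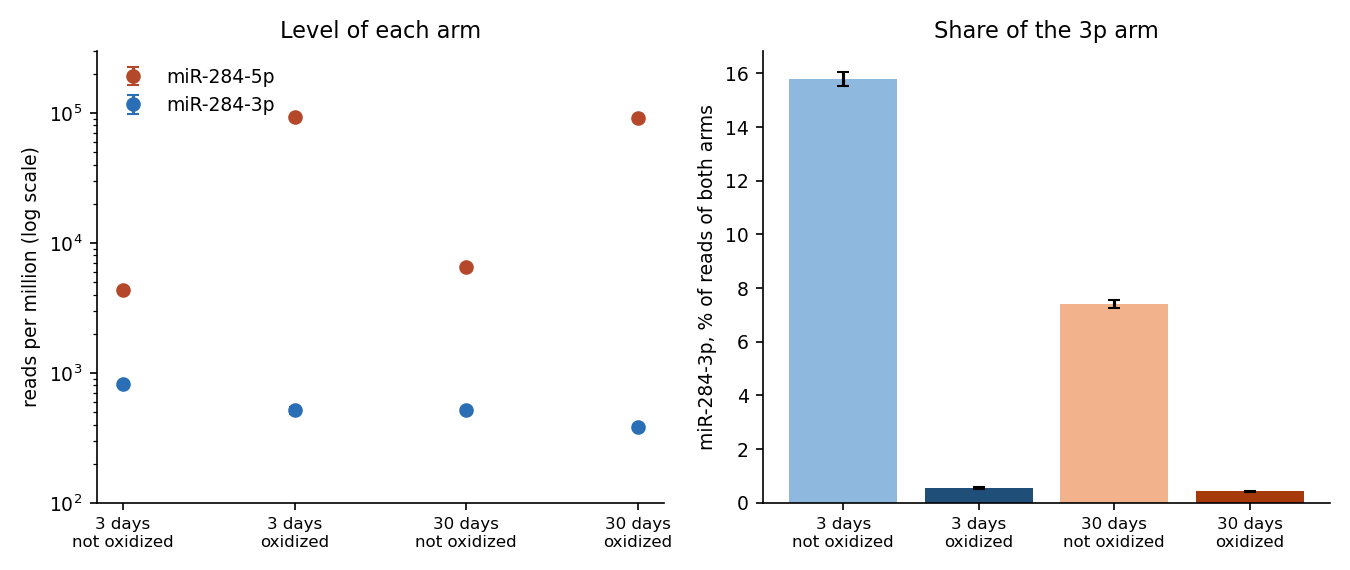
Left, level of each arm of miR-284 in each library in RPM on a log axis, with 95% counting intervals smaller than the points. Right, miR-284-3p as a percentage of the reads of both arms, with exact 95% intervals; it falls from 15.8% and 7.39% without oxidation to 0.555% and 0.421% with it.

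The share of each arm within a library does not depend on library scaling. miR-284-3p made up 15.8% of the reads of both arms at 3 days without oxidation (exact Clopper-Pearson interval 15.55 to 16.04, 83015 reads). It made up 0.555% at 3 days with oxidation (0.523 to 0.589, 194201 reads). At 30 days it made up 7.39% without oxidation (7.24 to 7.54, 120896 reads) and 0.421% with oxidation (0.409 to 0.433, 1109327 reads). Both oxidized libraries were thus under 1% 3p, and the intervals of the 4 libraries do not overlap. In reads of 5p for each read of 3p, the libraries stood at 5.33 and 179 at 3 days and at 12.5 and 236 at 30 days, without and with oxidation. Oxidation raised this number 33.6-fold at 3 days (31.6 to 35.8) and 18.9-fold at 30 days (18.2 to 19.6). With reads of 20 to 24 nt only, the usual microRNA sizes, the main 5p forms drop out, and the 3p share without oxidation becomes 78.7% at 3 days and 63.4% at 30 days.

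Hairpins allowed a comparison of arm shares where both arms were named, passed the mean level filter and had 100 RPM or more without oxidation. The last limit was set after the values were seen so that no arm entered by being high after oxidation. The mean filter can still drop an arm for being low after oxidation. At 3 days the share of the minor arm was higher after oxidation in 7 of 11 hairpins and lower in 4, and at 30 days it was higher in 6 of 12 and lower in 6. By the size of the decrease in minor per major reads miR-284 came 2nd at each age, after miR-927. This decrease contains the 5p oxidation ratio on which miR-284 was chosen, so nothing is read from its place. In miR-927 the share of the 3p arm went from 30.8% to 0.580% at 3 days and from 18.04% to 0.305% at 30 days. The minor arms miR-10-3p and miR-285-3p were also lower at both ages, and miR-281-3p and miR-305-5p were lower at 30 days. At 3 days miR-281-3p, at 144 RPM without and 30.1 RPM with oxidation, failed the mean filter and was not counted. Its share was lower there too, with a log2 oxidation ratio of -2.25 beside -1.42 for miR-281-2-5p. In miR-305 the minor arm without oxidation was the 3p arm at 3 days (41.2%, then 83.9%) and the 5p arm at 30 days (46.9%, then 10.6%), so its 3p arm gained share at both ages and was counted in opposite directions.

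**Figure D2:**
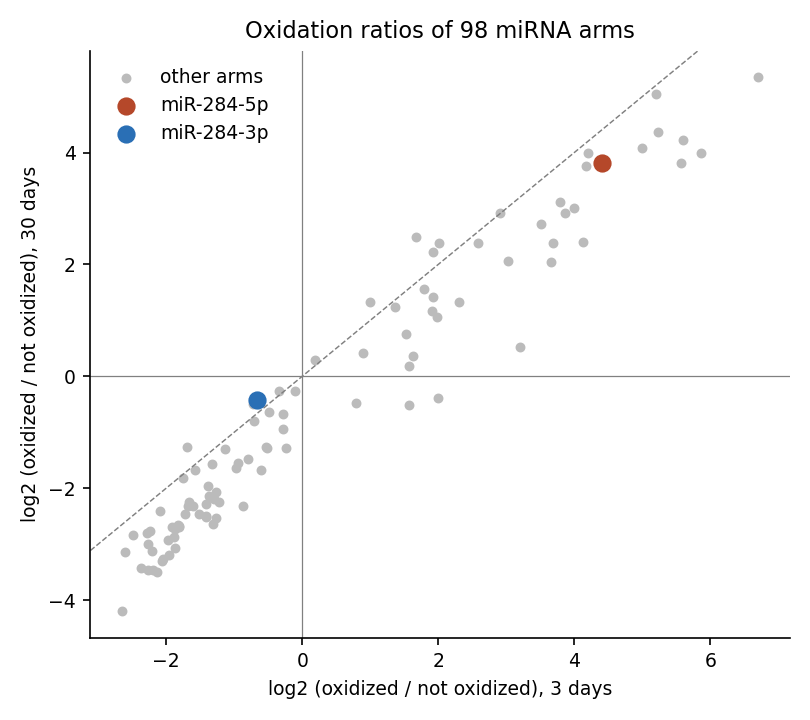
Oxidation ratio of each of 98 microRNA arms (log2 of oxidized over not oxidized RPM) at 3 days on the horizontal axis and at 30 days on the vertical axis, with the line of equal values dashed. miR-284-5p lies at 4.41 and 3.82, and miR-284-3p at -0.66 and -0.42, above the line.

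Without oxidation the arms of miR-284 moved in opposite directions with age. There miR-284-5p was 1.49-fold higher at 30 than at 3 days (log2 0.57, 0.56 to 0.59), and miR-284-3p was 1.58-fold lower (log2 -0.66, -0.70 to -0.62). Neither passed 2-fold, which 9.47% of 95 arms did, and the directions were the same under each scaling tried. The number of 5p reads per 3p read was 2.35-fold higher at 30 days (2.28 to 2.42), a value free of scaling. With oxidation the 5p arm was almost level between the ages (log2 -0.017), while 27.1% of 96 arms changed at least 2-fold; the 3p arm was at -0.42, with the same sign. In the oxidized libraries the 5p reads per 3p read were 1.32-fold higher at 30 days (1.23 to 1.41). The signs of both values with oxidation turn under other scalings (0.45 to 0.85 for the 5p arm and 0.048 to 0.45 for the 3p arm).

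The oxidation ratio itself went from 21.3-fold at 3 days to 14.1-fold at 30 days for miR-284-5p, an age change of -0.59 on the log2 scale (-0.61 to -0.58). Its sign depends on scaling, with 0.34 under TMM, 0.11 under median of ratios and -0.13 without miR-263a-5p. For miR-284-3p the age change was 0.24 (0.14 to 0.35). Over all 98 arms the median age change was -0.78, and 30.6% of arms changed at least 2-fold. Relative to that median the 5p arm lay 0.19 above and the 3p arm 1.03 above, the 6th highest of the 98. The 3p arm moved against the general shift by total reads, and its age change was above 0 under each scaling tried (0.70 to 1.18).

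Read lengths of the 5p arm were held in a narrow band. Reads of 25 to 27 nt made up 94.6% of miR-284-5p at 3 days and 95.1% at 30 days without oxidation, and 99.2% and 98.7% with oxidation. The 26-nt reads led without oxidation, with 52.7% at 3 days and 49.4% at 30 days, and the 25-nt reads led with oxidation, with 51.5% and 50.9%. The order of these 2 lengths therefore differed between the libraries with and without oxidation at both ages. The mean length hardly moved, from 25.46 nt to 25.49 nt at 3 days and from 25.44 nt to 25.49 nt at 30 days.

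The oxidation ratio was not the same for all 5p lengths. Reads of 27 nt went from 40.8 to 2593 RPM at 3 days, 63.5-fold, and from 143 to 3616 RPM at 30 days, 25.3-fold. Reads of 25 nt were 26.8-fold and 16.5-fold higher, and reads of 26 nt 18.1-fold and 12.5-fold higher. One base below this band the gain was far smaller, since reads of 24 nt went from 158 to 512 RPM at 3 days (3.23-fold) and from 190 to 848 RPM at 30 days (4.47-fold). The lowest gain among lengths of 16 to 27 nt was at 22 nt, 1.69-fold and 1.64-fold, with intervals that overlapped those of reads of 21 nt at both ages and of 20 nt at 30 days. The step from 25 to 24 nt was thus larger than the whole difference between the ages for any of these forms.

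**Figure D3:**
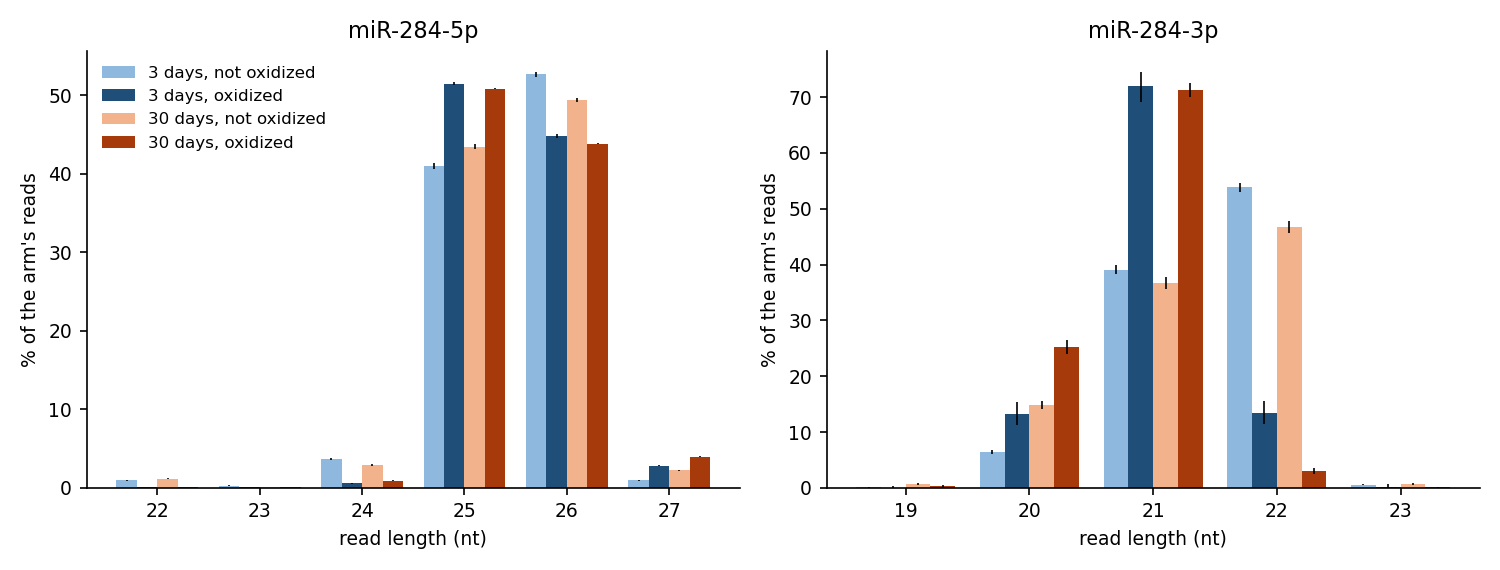
Share of each read length in the reads of miR-284-5p (left) and miR-284-3p (right) in the 4 libraries, in percent, with exact 95% intervals. After oxidation 25-nt reads overtake 26-nt reads in the 5p arm, and 22-nt reads of the 3p arm drop to 13.4% at 3 days and 3.02% at 30 days.

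The 3p arm split by length. Its 22-nt form, the most abundant without oxidation, was at 438 RPM at 3 days without and 68.9 RPM with oxidation, and at 241 and 11.6 RPM at 30 days. These are ratios 6.36-fold lower at 3 days (log2 -2.67, -2.92 to -2.43) and 20.7-fold lower at 30 days (log2 -4.37, -4.62 to -4.13). The 21-nt form was at 318 and 371 RPM at 3 days and at 189 and 275 RPM at 30 days, ratios of 0.22 and 0.54 on the log2 scale. The 20-nt form was at 52.1 and 68.4 RPM, then 76.6 and 97.1 RPM, with log2 ratios of 0.39 and 0.34. The lower level of the whole arm after oxidation was thus carried by the form with 1 base more. Under each scaling the 22-nt form stayed lower, between -2.13 and -3.05 at 3 days and between -3.38 and -4.37 at 30 days; the sign of the 21-nt form at 3 days turned with TMM scaling (-0.16).

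In shares, the 22-nt reads went from 53.8% to 13.4% of miR-284-3p at 3 days and from 46.7% to 3.02% at 30 days. The 21-nt reads went from 39.1% to 71.9% and from 36.7% to 71.2%, and the 20-nt reads from 6.40% to 13.3% and from 14.9% to 25.1%. The 20-nt share was therefore higher at 30 days than at 3 days in both kinds of library, and the intervals of the ages do not overlap (5.99 to 6.83 and 14.1 to 15.6 without oxidation; 11.3 to 15.4 and 23.9 to 26.4 with it). The oxidized 3-day library held only 1078 reads of the arm, which makes its shares the least precise.

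**Figure D4:**
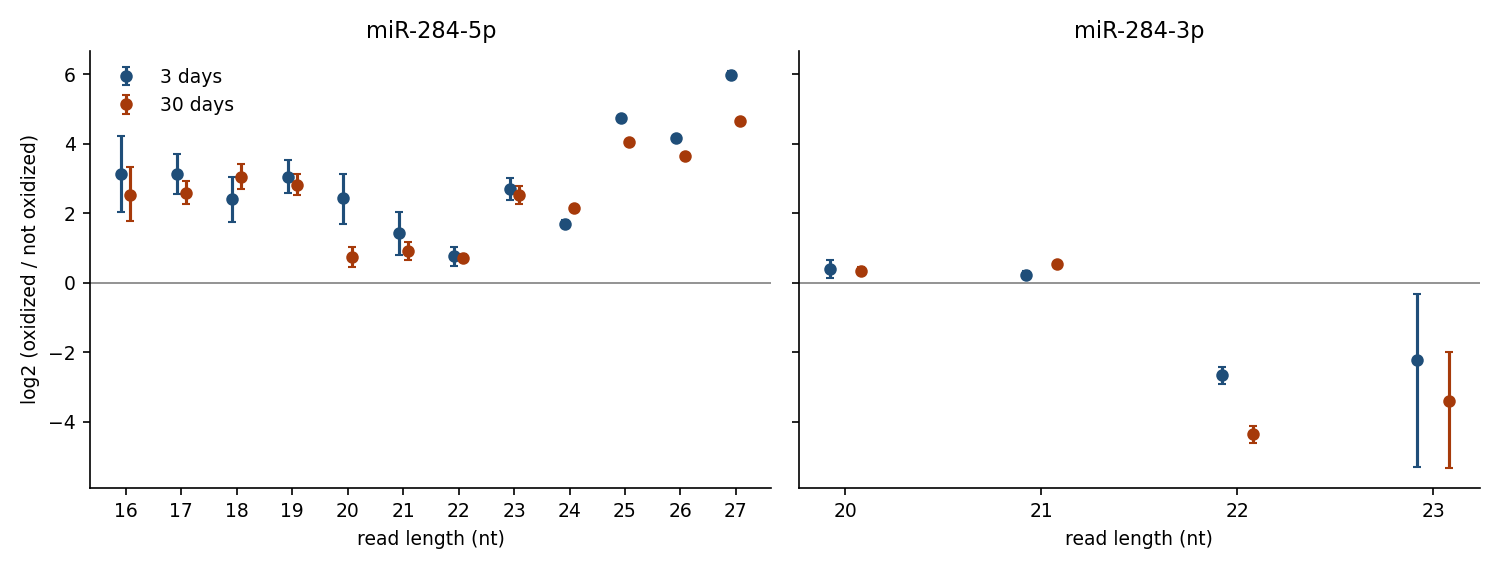
Oxidation ratio (log2 of oxidized over not oxidized RPM) of each read length of miR-284-5p (left) and miR-284-3p (right), with 95% counting intervals, at 3 and 30 days. Every 5p length from 16 to 27 nt lies above 0, with the highest value at 27 nt, whereas the 3p arm goes from 0.22 and 0.54 at 21 nt to -2.67 and -4.37 at 22 nt.

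To set this split beside other arms, the oxidation ratio of the main length of each arm was compared with that of the sequence 1 nt shorter at the same start, a measure chosen after the values of miR-284-3p were seen. The main length is the one with most reads without oxidation at that age. This choice favours main forms that are lower after oxidation, so a shared direction is partly built in. For miR-284-3p the 22-nt form was 7.41-fold lower than the 21-nt form at 3 days (log2 -2.89, -3.15 to -2.63) and 30.1-fold lower at 30 days (log2 -4.91, -5.16 to -4.66). A main form at least 2-fold lower than its shorter neighbour was found in 29.2% of 89 arms at 3 days and in 36.8% of 87 arms at 30 days. It was at least 2-fold higher in 11 arms at 3 days and in 14 at 30 days. miR-284-3p came 5th from the lowest at 3 days and 3rd at 30 days, so few arms had a larger step down. At 30 days 2 unnamed arms were lower still, and miR-125-5p, named after its value was seen, came next at 16.1-fold. For miR-284-5p the 26-nt form was 1.48-fold lower than the 25-nt form at 3 days (log2 -0.56) and 1.32-fold lower at 30 days (log2 -0.40), close to the median arm (-0.51 and -0.60).

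**Figure D5:**
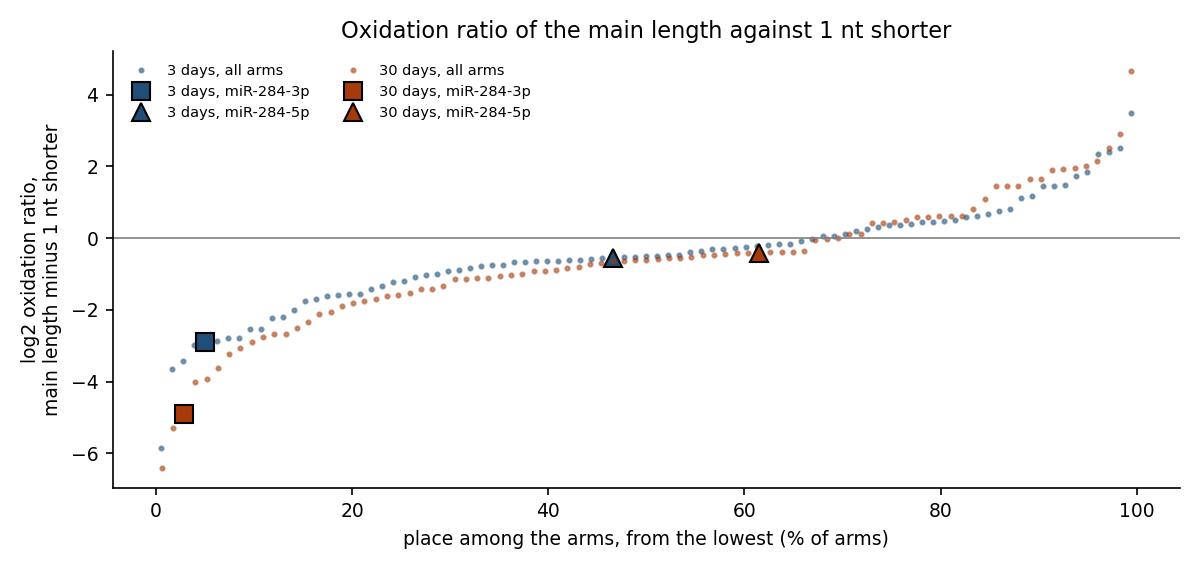
Difference in log2 oxidation ratio between the main length of an arm and the sequence 1 nt shorter, for 89 arms at 3 days and 87 at 30 days, ordered from the lowest (horizontal axis, % of arms). The main length is the one with most reads without oxidation at that age. miR-284-3p (squares) lies near the low end at -2.89 and -4.91, and miR-284-5p (triangles) near the middle at -0.56 and -0.40.

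The 5′ ends of both arms were nearly fixed. The main start held 99.6% and 99.8% of miR-284-5p at 3 days and 99.7% and 99.8% at 30 days, without and with oxidation. For miR-284-3p it held between 99.9% and 100% of reads in each library. A start 1 base further in took 0.172% and 0.141% of the 5p arm at 3 days and 0.155% and 0.148% at 30 days. Reads that began 4 bases upstream of the 5p arm numbered 46 and 7 at 3 days and 27 and 27 at 30 days, a share of 0.0658% against 0.00362% and of 0.0241% against 0.00244%. In RPM these reads were at 2.85 and 3.35 at 3 days and at 1.56 and 2.23 at 30 days, log2 ratios whose intervals include 0.

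Shortened reads of the 5p arm came from both of its ends. Those that kept the main start and stopped at 16 to 19 nt were at 8.56 and 55.9 RPM at 3 days and at 13.3 and 91.8 RPM at 30 days, 6.53-fold and 6.92-fold higher after oxidation. Those that began 2 to 11 bases inside and kept a 3′ end at base 25 to 27 of the arm were at 5.90 and 84.2 RPM at 3 days and at 9.34 and 69.2 RPM at 30 days. Their ratios were 14.3-fold at 3 days (log2 interval 3.47 to 4.21) and 7.41-fold at 30 days (2.65 to 3.14). At 3 days the fragments with the arm's own 3′ end were therefore above those with its 5′ end (log2 interval 2.34 to 3.07). At 30 days the intervals of the pair overlapped. The 2 groups are not matched in length, since only the group that kept the main start was limited to 16 to 19 nt. Reads that began 2 bases inside are nearly full length and went from 8 to 40 reads at 3 days (38.5-fold). Which end was kept therefore cannot be told apart from length here.

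Reads longer than 30 nt ran from the 5p start through the arm into the loop, and the longest had 42 nt, 16 bases past the 26-nt form. They numbered 39 at 3 days and 29 at 30 days without oxidation, and 0 and 3 with it. The count of 0 allows up to 1.43 RPM in that library, below the 2.42 RPM measured without oxidation; at 30 days they were 6.75-fold lower (log2 interval -5.11 to -1.06). All 18 sequences of the 5p arm that share the main start matched the beginning of this longest read. Members were defined by a match without mismatch, so none could carry a changed base within the arm. Allowing 1 mismatch added 0 sequences on either arm. Whether reads with a changed base had been removed before deposit is not known, so nothing is read from this count.

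Over the 4 libraries the arm with the level pattern most like that of miR-284-5p was miR-927-5p. Its log2 RPM, centred on its own mean, differed by a root mean square of 0.11, with 98 arms compared. Its levels were 2973 and 53472 RPM at 3 days and 3783 and 51176 RPM at 30 days, without and with oxidation. miR-278-5p (0.23), miR-100-3p (0.25) and an unnamed arm of 22 nt (0.33) followed. For miR-284-3p the nearest were miR-285-3p (0.15), miR-184-3p (0.16), an unnamed arm of 22 nt (0.23) and miR-193-5p (0.24). In oxidation ratio the neighbours of miR-284-5p were miR-100-3p (log2 5.001) above and miR-278-5p (4.20) below at 3 days, beside its own 4.41, with miR-263a-5p and miR-927-5p one place further. At 30 days they were miR-278-5p (3.99) above and miR-2a-2-5p (3.81) below its 3.82, then miR-998-5p and miR-927-5p. miR-284-3p stood between miR-306-5p and miR-316-5p at 3 days (log2 -0.61 and -0.72), next to miR-283-5p and miR-193-5p. At 30 days it stood between miR-308-3p and miR-986-5p (-0.38 and -0.48), next to miR-285-3p and miR-193-5p.

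Other long arms did not all resist oxidation. The other 4 arms above the filter whose leading sequence had 24 nt or more were miR-263a-5p, miR-987-5p, miR-190-5p and an unnamed arm of 26 nt. Of these 1, miR-263a-5p (24 nt), was higher after oxidation, by log2 5.21 at 3 days and 5.04 at 30 days, and 3 were at least 2-fold lower at both ages, except miR-190-5p at 30 days when miR-263a-5p was left out of the totals. The unnamed arm was at -1.72 and -2.45, but it is not a close match to miR-284-5p in length. Without oxidation its main length was 26 nt at 3 days, with 7045 of its 20762 reads. At 30 days it was 24 nt, with 8037 of 28336 reads. A list of 15 nervous system miRNAs, of which 11 passed the level filter, was set beside the hairpin. Those 11 were all at least 2-fold lower after oxidation at each age, as were 43.9% and 52.6% of all arms, with median log2 ratios of -1.81 and -2.67 beside -0.69 and -1.28 for all arms. The list holds only 1 arm of each hairpin, and the partner arms that were named went the other way. At 3 and 30 days miR-315-3p was at 6.70 and 5.34 and miR-276a-5p at 2.59 and 2.38. Without oxidation miR-315-3p was at 95.0 and 71.1 RPM, so it passed the filter only through the oxidized libraries. miR-9a-3p, below the filter, was at 2.83 and 3.08. With miR-263a-5p left out of the totals 8 of 11 were at least 2-fold lower at 3 days, without miR-124-3p, miR-315-5p and miR-1000-5p, and 10 of 11 at 30 days, without miR-190-5p. With age, without oxidation, 0 of the 12 list members above the filter changed 2-fold, with a median of -0.14 beside 0.01 for all arms.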

How the data were processed

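Heads of male flies gave 4 small RNA libraries, prepared with the Illumina TruSeq kit per the labels' protocols. The authors deposited 1 table of raw counts per library (read sequence and number of reads), with no names or coordinates. Per the submitters' processing notes, CASAVA 1.8.2, Bowtie and dm3 were used, without saying for which step. The adapter trimming is a step not given in the sources used here. Between 65 and 165 sequences per library were listed again with equal counts and were counted once.

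The 26-nt sequence most abundant at 3 days without oxidation, matching the annotated length, served as the 5p reference. Its strongest predicted partner (ViennaRNA 2.7.2) was the 3p reference; its start was not checked against a genome. All sequences of up to 30 nt were grouped into arms by overlaps of 15 nt within 34 nt, and 253 that matched several arms, at most 0.00935% of a library, were left out. Of 523 arms 86 were named by recognising catalogue sequences from memory, so those names are not certain.

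Levels are RPM of each table's sum. With 1 library per group no test was made. Shares and ratios of 2 libraries carry exact Clopper-Pearson 95% intervals; age changes, arm ratios and length steps use Poisson variances. Arms entered with a mean of 100 RPM and 50 reads. The text names the arms of miR-284, sequences with 1% of an arm of at least 1000 reads, the 4 most similar arms, 2 neighbours on each side, long arms and listed miRNAs. Grouping and intervals were tested on simulated data. Scalings came from edgeR 4.0.16 (TMM) and DESeq2 1.42.0 (median of ratios). Members and lists were chosen with earlier results of these data known.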

Additional observations from a re-analysis of the deposited data

How the results depend on the processing

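No paired analysis was possible because each group is 1 library. Scaling moved the ratios, given here in the order TMM, median of ratios and totals without miR-263a-5p, on the log2 scale. The oxidation ratio of miR-284-5p was 4.03, 4.37 and 4.95 at 3 days and 4.37, 4.48 and 4.81 at 30 days. That of miR-284-3p was -1.04, -0.70 and -0.12 at 3 days, and 0.13, 0.24 and 0.58 at 30 days. The age change of the oxidation ratio was 0.34, 0.11 and -0.13 for the 5p arm and 1.18, 0.94 and 0.70 for the 3p arm. From 3 to 30 days with oxidation the 5p arm was at 0.85, 0.63 and 0.45 and the 3p arm at 0.45, 0.23 and 0.048. Without oxidation TMM and median of ratios gave 0.51 and 0.52 for the 5p arm and -0.72 and -0.71 for the 3p arm. Scaling adds 1 amount to every arm, so the sign of the small ratios is set by it, and the arm shares are not.

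Reads of 20 to 24 nt only gave 3p shares of 78.7% and 42.5% at 3 days and 63.4% and 26.6% at 30 days, without and with oxidation, because most 5p reads are longer. With the most common start only, 5p reads of 25 nt or more made up 94.9%, 99.3%, 95.4% and 98.9% of the arm, in the order of the libraries. Counting every listing of a sequence, an alternative chosen after seeing the data for the ratios and arm shares, moved 1 of 22 results outside its interval (miR-284-5p at 30 days, 3.83). An overlap of 18 nt left all 14 results inside their intervals. Allowing 1 mismatch added 0 sequences, so it could not move any result. A limit of 200 reads per length, also chosen later, kept both counts of length steps within 1.5 times. With the level filter on the library without oxidation miR-284-5p was 4th in oxidation ratio at each age, and with a filter of 10 RPM it was 12th at 3 days and 9th at 30 days and miR-284-3p was 86th and 65th. With hairpins admitted on the mean of both libraries, the minor arm's share was higher in 11 and lower in 5 of 16 at 3 days and higher in 10 and lower in 6 of 16 at 30 days, but 4 of the higher arms at each age pass that filter only through the oxidized library. Depth limits the oxidized 3-day library most, with 1078 reads of the 3p arm.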
